A study of Homo sapiens with 17 samples.

Results

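The 10 genes studied belong to the immediate early response and were followed through the regions listed over them. They were *FOS*, *FOSL1*, *FOSL2*, *JUN*, *JUNB*, *JUND*, *EGR1*, *ATF3*, *IER2* and *DUSP1*. A region was taken when its annotation carried an exon or intron mark of 1 of these 10 genes, with or without a promoter mark. This gave 71 regions of 326944 in all, 22 of 77311 in 22Rv1, 21 of 110260 in LNCaP and 28 of 139373 in HPr1AR. All 10 genes had at least 1 region in every line. RNA bearing N6-methyladenosine (m6A) had been pulled down with an antibody and sequenced, with an immunoglobulin G (IgG) pull-down as the background. The lines were 22Rv1 (prostate cancer, able to grow at castrate androgen levels), LNCaP (androgen-responsive prostate cancer) and HPr1AR (non-malignant prostate epithelium that carries the androgen receptor). All cells were labelled as wild type and vehicle-treated, and no stimulus of the immediate early response is named. The labels hold 2 m6A samples and 3 IgG samples of 22Rv1, 3 and 3 of LNCaP, and 3 and 3 of HPr1AR. Each line is 1 cell line, so differences between the lines are differences between 3 cultures and not between disease states. HPr1AR was also grown in another medium than the cancer lines, a serum-free one.

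Immediate early genes are transcribed within minutes of a growth factor or stress signal, without new protein synthesis, and their short-lived messenger RNAs are removed soon after. The Fos and Jun proteins pair through leucine zippers to form the transcription factor AP-1. The m6A mark is written on adenosines of nascent RNA, is frequent in long exons and near stop codons, and is known as a signal for messenger RNA decay. Many promoters of this class bind CREB at cyclic AMP response elements and serum response factor at CArG boxes.

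Of the 10 genes, 9 matched an entry in the RefSeq promoter table (GRCh38.p14), where the 250 bases before the transcription start were searched on both strands. The letters TGACG, the core of the cyclic AMP response element, stood in the promoters of 8 genes (*FOS*, *FOSL2*, *JUN*, *JUNB*, *JUND*, *EGR1*, *IER2* and *DUSP1*) and in 21.2% of all 35116 promoters. The whole element TGACGTCA, which contains the core, stood in those of *JUND* and *DUSP1* and in 1.65% of all. The AP-1 site TGACTCA stood in 0 of the 9 and in 4.20% of all. A CArG box stood in the *EGR1* promoter, at 2 places, and in 1.16% of all. Stretches of 30 bases are shown for the founding AP-1 pair, for both promoters with the whole element, and for both boxes of *EGR1*. Capitals mark TGACG in the first 4 and the CArG box in the last 2, and each is written 5′ to 3′ on the gene's own strand.
FOS, chr14:75278752-75278781 (+), motif 64 bases before the start: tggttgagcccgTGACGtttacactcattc
JUN, chr1:58784153-58784182 (-), motif 123 bases before the start: gagtctccatggTGACGggcgggcccgccc
JUND, chr19:18281805-18281834 (-), motif 200 bases before the start: cggccgcccccaTGACGtcaacccacaagg
DUSP1, chr5:172771303-172771332 (-), motif 125 bases before the start: tggcagggcgggTGACGtcaccgccccgtc
EGR1 first box, chr5:138465364-138465393 (+), 105 bases before the start: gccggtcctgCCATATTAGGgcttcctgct
EGR1 second box, chr5:138465386-138465415 (+), 83 bases before the start: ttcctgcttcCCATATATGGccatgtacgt
These are matches of letters and not sites shown to be bound. An element further than 250 bases before the start would have been missed.

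Each deposited table holds 1 pooled comparison for a line, with no value per sample, so no error between replicates can be given. A region is a run of overlapping windows. Some neighbouring regions of near equal width overlap, so a long run can be listed as more than 1 region, and counts of regions depend on this. The fold describes 1 representative window. The p-value is given for the region as a whole, and regions with the same fold and reads can differ in it. In the authors' deposited tables all 71 regions passed an adjusted p of 0.05, as did 99.3% of all regions in 22Rv1, 95.4% in LNCaP and 96.5% in HPr1AR, so passing says nothing particular about these genes. The deposited fold subtracts the log of the IgG rate 2 times, and by it 1 m6A read is enough to pass. Whole m6A and IgG reads of the representative window were therefore rebuilt from the fold and the p-value, and their rates were compared as an ordinary ratio. The rebuilt depths were 3300000 m6A and 4820000 IgG reads in 22Rv1, 3920000 and 8870000 in LNCaP, and 5130000 and 11700000 in HPr1AR. "Higher" below means a larger m6A than IgG rate with an adjusted p under 0.05 in an exact two-sided binomial test, Benjamini-Hochberg adjusted over all regions of the line. Intervals are 95% exact (Clopper-Pearson) intervals, and they cover counting error only. Where the p-value is 0 or no pair of reads gave the fold, the smallest reads are given as "at least", the ratio has no upper limit, and it cannot be ranked against another line. A count of 0 IgG reads was set to a floor of 3 reads for the ratio, which is then also a lower bound.

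By this ratio 57 of the 71 regions were higher in m6A, 14 were not called and 0 were lower, where 0.936% of all regions in 22Rv1, 0.138% in LNCaP and 0.122% in HPr1AR were lower. Higher were 19 of 22 regions in 22Rv1, where 56.4% of all regions were, 17 of 21 in LNCaP against 40.6% of all, and 21 of 28 in HPr1AR against 40.6% of all. These regions were wider than most, with a median of 136.5, 115 and 212 windows against 21, 21 and 18 over the 22Rv1, LNCaP and HPr1AR tables. Among regions of at least 100 windows, 12 of 12, 12 of 12 and 17 of 19 were higher, near the 86.3%, 82.0% and 81.4% of all regions of that width. A gene with any higher region was the rule in these tables (91.1% of listed genes in 22Rv1, 91.5% in LNCaP and 93.2% in HPr1AR), so the 10, 9 and 10 members with one are not a result about the class. The exception was *FOSL1* in LNCaP.

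The median log2 ratio of the member regions was 3.32 in 22Rv1, 3.45 in LNCaP and 1.97 in HPr1AR, beside a median over all regions of 2.09, 1.27 and 1.23. No scaling between m6A and IgG other than depth was applied, so a log2 ratio is best read against the median of its own table. Above that median lay 15 of 22 regions in 22Rv1, 18 of 21 in LNCaP and 18 of 28 in HPr1AR. Regions with only smallest reads were taken at those values, 2 of the 22, 6 of the 21 and 13 of the 28. Such a region may lie above the median though its bound lies under it. The member medians and these counts therefore cannot be ranked between the lines. When rates were rescaled so that the median region had a log2 ratio of 0, the higher regions numbered 8 in 22Rv1, 14 in LNCaP and 11 in HPr1AR, and the share of all regions called higher came to 17.2%, 23.1% and 22.7%. Regions with only smallest reads that did not pass there were left undecided and are not in these counts. The falls are thus not counts of regions tested and found not higher. Member regions held a median of 35, 27 and 85 reads in both pull-downs together, against 13, 10 and 11 over the 22Rv1, LNCaP and HPr1AR tables. The medians, rescaled counts and shares of this paragraph were not matched for width or reads. They are therefore not a result about the class.

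**Figure D1:**
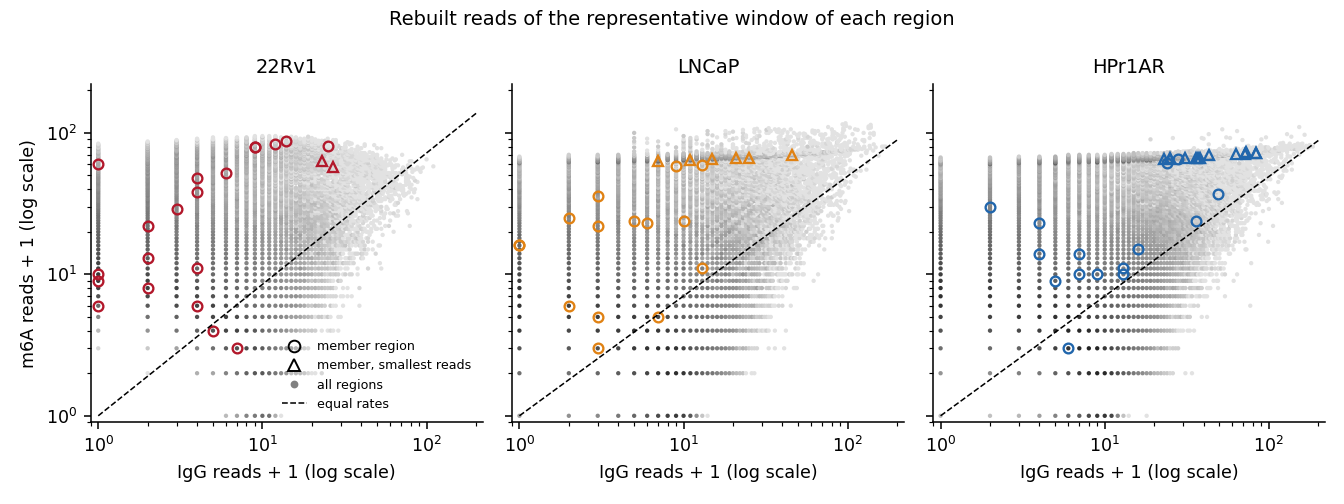
Rebuilt m6A reads (vertical, log scale, 1 added) against IgG reads (horizontal, log scale, 1 added) of the representative window, 1 panel per line; coloured symbols are the 22, 21 and 28 member regions, triangles those with only smallest reads, grey points all regions (darker where more regions share the pair). Most member regions lie above the dashed line of equal rates, and the triangles of LNCaP and HPr1AR form a band at 62 to 72 m6A reads, where the deposited p-value is listed as 0; the 2 triangles of 22Rv1 are regions for which no pair of reads gave the fold.

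Of the 71 regions, 57 carried an exon mark and 14 an intron mark only. Higher were 50 of the 57 exon regions (17 of 18 in 22Rv1, 15 of 18 in LNCaP and 18 of 21 in HPr1AR) and 7 of the 14 intron regions (2 of 4, 2 of 3 and 3 of 7). Of all exon regions 51.6%, 45.2% and 45.7% were higher, and of all intron regions with no exon mark 58.6%, 27.5% and 27.5%. The intron counts are too few to be read against these shares. The 14 regions not called belonged to *ATF3* (7), *FOSL1* (3), *FOSL2* (3) and *FOS* (1). They held 4 to 58 reads in both pull-downs together, and for such counts a missing call does not show that m6A was absent. *JUN*, *JUNB*, *JUND*, *EGR1*, *IER2* and *DUSP1* had no region without a call in any line.

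The Fos proteins are the AP-1 partners that bind DNA only together with a Jun protein, and *FOS* encodes the founding member. In 22Rv1 and HPr1AR 1 region spanned the gene (chr14:75745531-75748620 and chr14:75745521-75748740, positions as the tables give them), with 79 m6A and 8 IgG reads in 22Rv1 and at least 66 and 37 in HPr1AR. In LNCaP the gene was broken into 3 short regions with 5 and 1, 4 and 2, and 24 and 1 reads, m6A first. The gene was thus covered in a single run in 22Rv1 and HPr1AR and in patches in LNCaP, where the 3′ patch (chr14:75747111-75748450) held most reads. The log2 ratio was 3.85 in 22Rv1 (interval 2.80 to 5.11, adjusted p = 4.72e-21 by the exact binomial test). It was 5.76 for the 3′ patch in LNCaP (3.15 to 11.12, exact binomial adjusted p = 7.05e-11) and at least 2.03 in HPr1AR (lower limit 1.42). The middle LNCaP patch was not called (log2 ratio 2.18, interval -0.62 to 5.64), and the 5′ patch lost its call after rescaling to the table median. The 22Rv1 and LNCaP ratios did not differ detectably, with a log2 difference of -1.91 (22Rv1 minus LNCaP) and an adjusted p of 1.0 in the exact conditional test.

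*FOSL1* encodes Fra-1, a Fos protein known from basal and invasive epithelial cells, and was the member that varied most in how much of it was listed. The tables held 8 windows over it in 22Rv1 (1 region), 2 in LNCaP (1 region) and 930 in HPr1AR (4 regions). Over all genes listed in both lines, the log2 ratio of windows had a median of -0.53 for 22Rv1 over HPr1AR (5th to 95th percentile -3.24 to 1.27) and of -0.09 for LNCaP over HPr1AR (-2.56 to 2.01). For *FOSL1* it was -6.86 and -8.86, below the 5th percentile in both. The largest HPr1AR region (chr11:65657151-65662140) also carried an exon mark of *CCDC85B*, and without it 434 windows were left, still far above both cancer lines. No test stands behind this, since each line gives 1 value. The RNA amount of the gene was not measured here, and in bulk RNA fewer windows of a gene, fewer cells expressing it and less RNA per cell cannot be told apart.

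The reads over *FOSL1* were few in both cancer lines. The 22Rv1 region held 9 m6A and 0 IgG reads, a log2 ratio of at least 2.13 (exact binomial adjusted p = 0.000805). The LNCaP region held 2 and 2 reads and was not called. In HPr1AR the 4 regions held at least 71 and 82, 23 and 35, 10 and 12, and 36 and 48 reads, m6A first. IgG reads outnumbered m6A reads in the 3 exact pairs, and with the IgG library deeper the log2 ratios of the 4 regions came to at least 0.98, 0.58, 0.93 and 0.78. The 3 exact ones lay under the HPr1AR median of 1.23. Called higher were the first, shared with *CCDC85B*, and the 5′ region with 36 and 48 reads (interval 0.11 to 1.43, exact binomial adjusted p = 0.0426), whose lower limit lies near 0. After rescaling to the median, 0 of the 4 and 0 of the regions in 22Rv1 and LNCaP could be called.

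*FOSL2*, which encodes Fra-2, was split over 5 regions in 22Rv1, 3 in LNCaP and 8 in HPr1AR. Its longest regions lay at the 3′ end, which holds the long last exon. The 3′ region (chr2:28634791-28637220 in 22Rv1) held 59 m6A and 0 IgG reads in 22Rv1 and at least 62 and 6 in LNCaP (chr2:28634781-28639180). In HPr1AR it came as 2 adjoining regions with at least 64 and 24 and at least 66 and 24 reads. The log2 ratio was at least 4.84 in 22Rv1, at least 4.55 in LNCaP, and at least 2.61 and 2.65 in HPr1AR. An exon region further 5′ held 21 and 1, 57 and 8, and at least 64 and 22 reads in 22Rv1, LNCaP and HPr1AR. A short internal exon region (chr2:28627081-28627200 in 22Rv1) held 12 and 1, 23 and 4, and 64 and 27 reads. Every exon region of *FOSL2* in the cancer lines was higher, but after rescaling to the table median 1 of 5 was in 22Rv1, the 3′ one with 59 and 0 reads, and 3 of 3 in LNCaP. In HPr1AR 5 of 8 regions were higher, 4 of 8 after rescaling, the others being 2 intron regions (2 and 5, and 9 and 8 reads) and 1 exon region with 9 and 6 reads (log2 ratio 1.78, exact binomial adjusted p = 0.0518). For the internal exon, the difference 22Rv1 minus HPr1AR was 1.70 on the log2 scale, with an adjusted p of 1.0 in the exact conditional test.

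**Figure D2:**
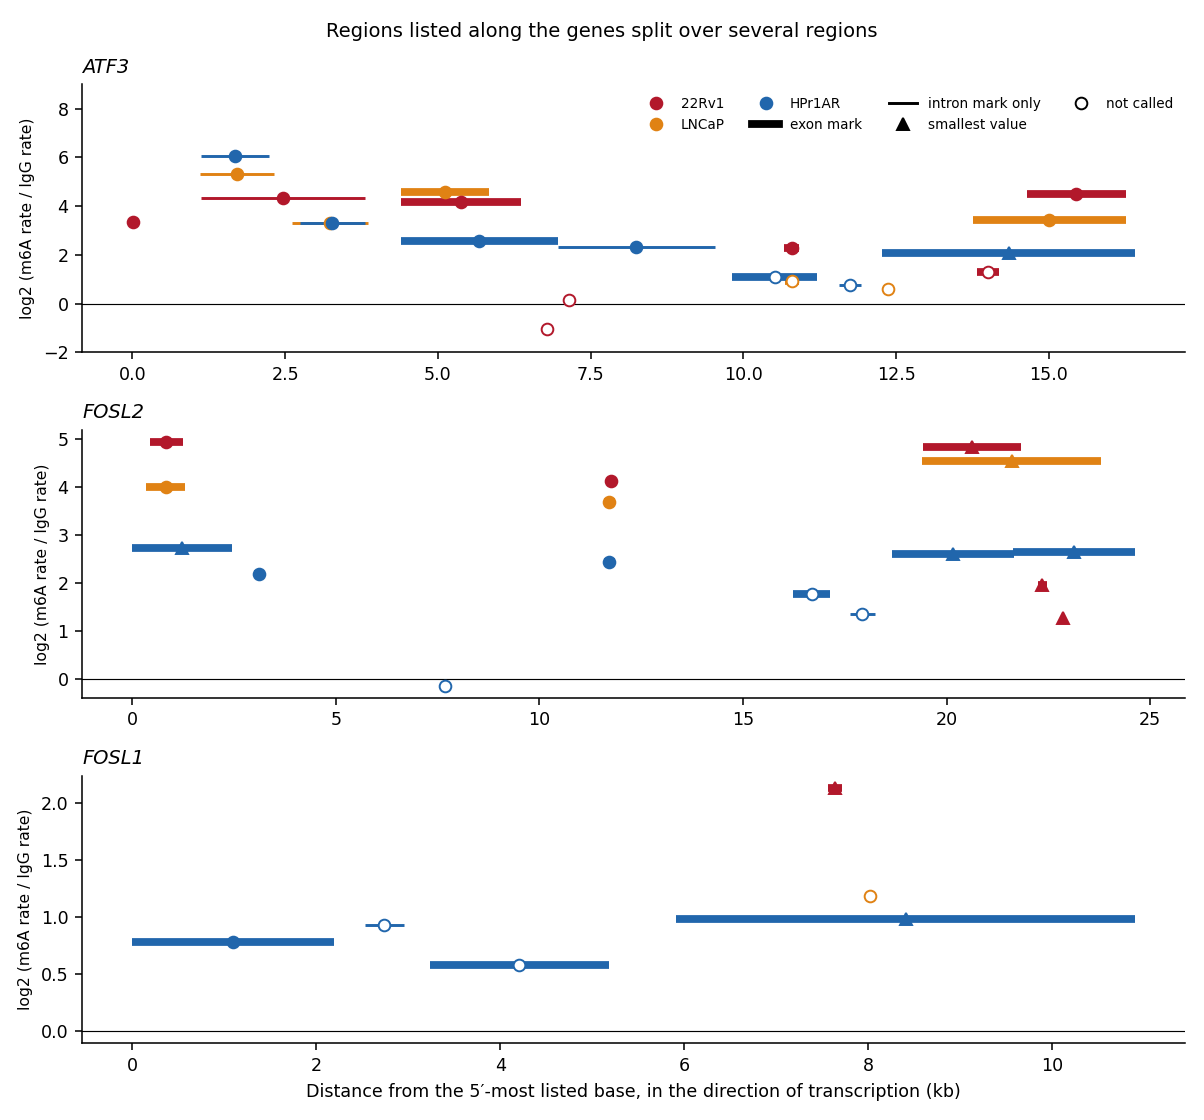
Regions of *ATF3*, *FOSL2* and *FOSL1* along each gene (horizontal, kb from the most 5′ listed base in the direction of transcription) with their log2 ratio of m6A to IgG rate (vertical); thick bars are regions with an exon mark, thin bars intron regions, triangles smallest values and open symbols regions not called. *FOSL1* is covered in HPr1AR alone over most of its length, and *ATF3* shows high ratios in intron regions before its first exon region in all 3 lines.

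The Jun family, whose proteins can pair with Fos proteins or with each other, are encoded by *JUN*, *JUNB* and *JUND*. These genes have no introns, and each was listed as 1 region per line. *JUN* (chr1:59246691-59249720 in 22Rv1) held 83 m6A and 11 IgG reads in 22Rv1, at least 64 and 14 in LNCaP, and at least 69 and 42 in HPr1AR. Its log2 ratio was 3.46 in 22Rv1 (2.55 to 4.52, exact binomial adjusted p = 4.05e-20), at least 3.37 in LNCaP and at least 1.91 in HPr1AR. The region was higher in each line, and after rescaling to the table median it was called in 22Rv1 and LNCaP. In HPr1AR, where only a bound is known, it was then left undecided. It also carries a promoter mark of *LINC01135*.

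*JUNB*, often an antagonist of *JUN* in growth control, covered chr19:12902291-12904040 in 22Rv1. It held 87 m6A and 13 IgG reads in 22Rv1, at least 63 and 10 in LNCaP, and at least 70 and 62 in HPr1AR. Its log2 ratio was 3.29 in 22Rv1 (2.44 to 4.26, exact binomial adjusted p = 2.66e-20), at least 3.83 in LNCaP and at least 1.37 in HPr1AR. The HPr1AR bound lies only 0.13 above the median of its table, and the region could no longer be called after rescaling to that median.

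*JUND*, the member of the family with steady expression in resting cells, covered chr19:18390211-18392430 in 22Rv1. It held at least 62 m6A and 22 IgG reads in 22Rv1, at least 69 and 45 in LNCaP and at least 65 and 30 in HPr1AR. All 3 log2 ratios are bounds, at least 2.04, at least 1.79 and at least 2.31. In 22Rv1 no pair of reads gave the fold, so that bound holds only if the rebuilt formula of the fold does. The region was higher in each line (exact binomial adjusted p = 5.83e-09 in 22Rv1, 4.92e-10 in LNCaP and 3.48e-13 in HPr1AR). After rescaling to the median it was called in HPr1AR and left undecided in 22Rv1 and LNCaP. It also carries a promoter mark of *MIR3188*.

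*EGR1*, a zinc-finger activator and a classic target of serum response factor, differed in coverage. In 22Rv1 1 region (chr5:137801161-137805040) of 379 windows held 80 m6A and 24 IgG reads. In LNCaP 2 short regions of 21 and 51 windows (chr5:137802681-137802900 and chr5:137803511-137804030) held 15 and 0 reads each. In HPr1AR 2 adjoining regions of 248 and 229 windows held at least 66 and 35, and at least 70 and 71 reads. The cancer line LNCaP thus had 72 windows in all, against 379 in 22Rv1 and 477 in HPr1AR. The log2 ratio of windows was 2.40 for 22Rv1 over LNCaP, above the 95th percentile of all genes (0.91), and -2.73 for LNCaP over HPr1AR, below the 5th (-2.56). The log2 read ratio was 2.28 in 22Rv1 (1.61 to 3.01, exact binomial adjusted p = 8.65e-13), at least 3.50 in both LNCaP regions and at least 2.11 and 1.17 in HPr1AR. The overlapping 22Rv1 and LNCaP regions had the smallest unadjusted p of the 11 tested pairs of member regions, 0.00926, with an adjusted p of 0.543 by the exact conditional test. As the LNCaP region has 0 IgG reads, their log2 difference is given as a bound, -1.22 or lower (22Rv1 minus LNCaP). With each table rescaled to its median the adjusted p was 0.04999 by that test, just under the threshold. After that rescaling both LNCaP regions and the first HPr1AR region were still higher, and the 22Rv1 region was not called. The second HPr1AR region, known only as a bound, was left undecided.

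*ATF3*, a stress-induced partner of Jun proteins that often represses, had the most regions after *FOSL2* in HPr1AR and the most of all members in the cancer lines: 8 in 22Rv1, 6 in LNCaP and 7 in HPr1AR. Its main exon region was the 3′ one in 22Rv1 and LNCaP, with 47 m6A and 3 IgG reads in 22Rv1 (chr1:212792351-212793970, log2 ratio 4.52, 2.88 to 6.85) and 58 and 12 in LNCaP (chr1:212791461-212793970, log2 ratio 3.45, 2.54 to 4.48). In HPr1AR the 3′ region held at least 66 and 36 reads, a log2 ratio of at least 2.06. The first exon region (from chr1:212782101 in all lines) held 37 and 3 reads in 22Rv1, 21 and 2 in LNCaP and 60 and 23 in HPr1AR. This first listed exon region and the 3′ region were both higher in every line. Intron marks of *ATF3* stand further 5′, so the first listed exon region need not be the 5′ end of the transcript. For 4 of the *ATF3* and *FOSL2* regions of LNCaP, *IER2* in LNCaP and the first *ATF3* exon region in HPr1AR, more than 1 pair of reads gave the fold and the pair nearest to it is quoted.

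*ATF3* also had reads in intron regions upstream of that exon. The region starting at chr1:212778841 in 22Rv1 and HPr1AR and at chr1:212778821 in LNCaP held 28 m6A and 2 IgG reads in 22Rv1, 35 and 2 in LNCaP, and 29 and 1 in HPr1AR. The log2 ratios were 4.35 (2.37 to 7.47), 5.31 (3.35 to 8.41) and 6.05 (3.46 to 11.40). All 3 were above the median of their table, by 2.26, 4.04 and 4.82, and the 3 lines overlapped in their intervals. The differences were -0.95 for 22Rv1 minus LNCaP, -1.69 for 22Rv1 minus HPr1AR and -0.74 for LNCaP minus HPr1AR on the log2 scale, each with an adjusted p of 1.0 by the exact conditional test. A second upstream intron region had 22 and 5 reads in LNCaP and 13 and 3 in HPr1AR, with log2 ratios of 3.32 and 3.31. The internal regions were weaker. At the internal exon near chr1:212788391 the reads were 10 and 3 in 22Rv1 (higher, exact binomial adjusted p = 0.0190), 10 and 12 in LNCaP and 14 and 15 in HPr1AR (neither called). Of the 7 *ATF3* regions without a call, each was internal by position. After rescaling to the table median 2 of 8, 4 of 6 and 3 of 7 *ATF3* regions were higher in 22Rv1, LNCaP and HPr1AR, the upstream region at chr1:212778841 being lost in 22Rv1, and 1 internal intron region of 22Rv1 with 2 and 6 reads was lower.

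*IER2*, whose nuclear protein acts in transcription, was listed as 2 adjoining regions of nearly equal width in each line. These overlap at their shared edge, so they are parts of 1 run of windows. The first (chr19:13259841-13262810 in 22Rv1) held 51 m6A and 5 IgG reads in 22Rv1, 23 and 9 in LNCaP and 22 and 3 in HPr1AR, but it also carries an exon mark of *STX10*, so its reads cannot be given to *IER2* alone. The second (chr19:13262801-13265770 in 22Rv1) carries no other exon and held at least 56 and 26, at least 65 and 20, and at least 71 and 82 reads. In the second region the log2 ratios were at least 1.65, at least 2.88 and at least 0.98 in 22Rv1, LNCaP and HPr1AR. No pair of reads gave its fold in 22Rv1, so the bound there holds only if the rebuilt formula does. Both regions were higher in all 3 lines, but after rescaling to the table median 1 per line was called, the first in 22Rv1 and HPr1AR and the second in LNCaP. For the first, the difference 22Rv1 minus HPr1AR was -0.17 on the log2 scale (adjusted p of 1.0, exact conditional test).

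*DUSP1*, the phosphatase that switches off the MAP kinases upstream of the class, was listed as 1 region per line (chr5:172195341-172198210 in 22Rv1). It held 79 m6A and 8 IgG reads in 22Rv1, at least 66 and 24 in LNCaP and at least 72 and 72 in HPr1AR. The log2 ratio was 3.85 in 22Rv1 (2.80 to 5.11, exact binomial adjusted p = 4.72e-21), at least 2.64 in LNCaP and at least 1.19 in HPr1AR. The HPr1AR bound of 1.19 was higher than 0 although its smallest reads are equal, because the IgG library was deeper. It lay under the median of its table, and the region could no longer be called after rescaling.

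**Figure D3:**
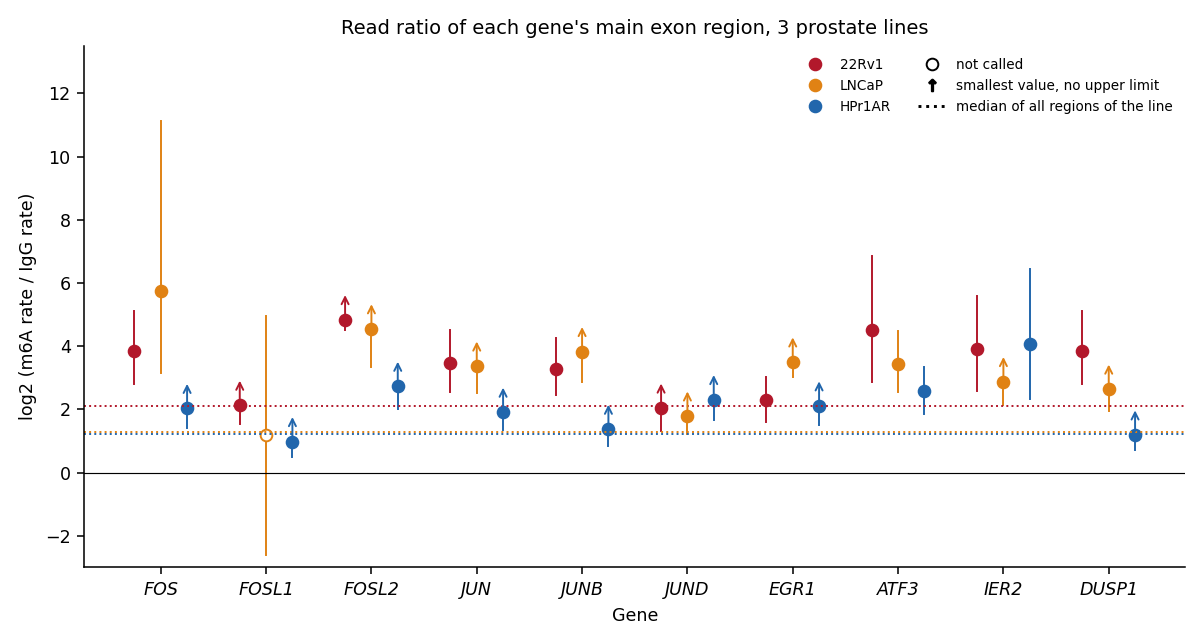
Log2 ratio of m6A to IgG rate (vertical) of each gene's main exon region, the one with the smallest p of the ratio test, in 22Rv1, LNCaP and HPr1AR; bars are 95% exact intervals of counting error, arrows mark smallest values with no upper limit, open symbols regions not called, and dotted lines the median of all regions of a line. *FOSL1* in LNCaP (1.18) is the open symbol, and *DUSP1* (at least 1.19) and *JUNB* (at least 1.37) sit near the dotted line of HPr1AR.

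Over the class, 18 pairs of member regions overlapped between 22Rv1 and LNCaP, 21 between 22Rv1 and HPr1AR and 21 between LNCaP and HPr1AR. Only pairs with exact reads in both lines could be tested, which left 4, 5 and 2 pairs, 11 in all, from *ATF3*, *FOS*, *EGR1*, *IER2* and *FOSL2*. By the exact conditional test, 0 of 4, 0 of 5 and 0 of 2 differed after adjustment over all 39622, 48848 and 51084 tested pairs, and at an unadjusted p under 0.05 1, 0 and 0 did, where 4.91%, 6.46% and 5.73% of all pairs did. After adjustment the background was 0.0303% higher and 0.283% lower in 22Rv1 than in LNCaP, 0.149% and 0.506% in 22Rv1 than in HPr1AR, and 0.178% and 0.329% in LNCaP than in HPr1AR. Calls are thus rare in these data at any gene, and 0 calls in 11 pairs does not show that the lines are alike. For *JUN*, *JUNB*, *JUND* and *DUSP1* 0 pairs could be tested.

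How much of a gene was listed changed little between the lines for *IER2*, *DUSP1* and the Jun genes. The windows listed over *IER2* numbered 584, 583 and 590, over *DUSP1* 286, 303 and 363, over *JUN* 278, 314 and 367, and over *JUNB* 174, 228 and 178 in 22Rv1, LNCaP and HPr1AR. For *JUND* they numbered 199, 287 and 285. For *ATF3* they were 533, 619 and 1161, and for *FOSL2* 291, 513 and 992. *FOS* had 305, 153 and 321. Of the *IER2* windows, 292, 293 and 295 lay outside the region shared with *STX10*. The median over all listed genes was 213, 303 and 321 windows, which moves in the same order as the depth. Set against all genes, *FOSL1* stood outside the 5th to 95th percentile in all 3 pairs of lines, *EGR1* in the 2 pairs with LNCaP, and *FOS* in 22Rv1 over LNCaP (log2 ratio of windows 1.00).

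**Figure D4:**
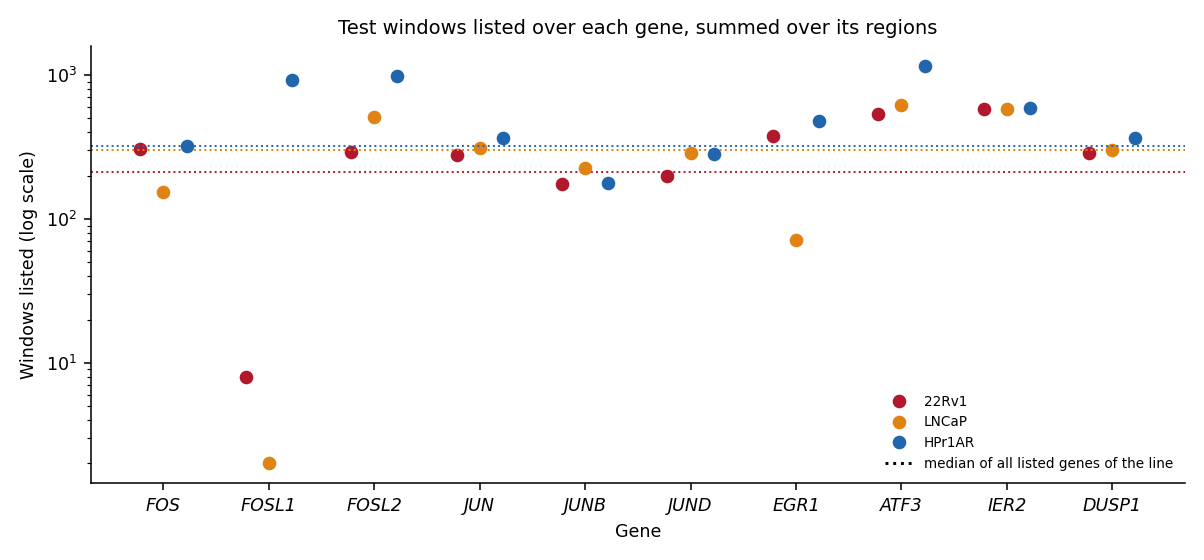
Number of test windows listed over each gene (vertical, log scale), summed over its regions, in 22Rv1, LNCaP and HPr1AR, with dotted lines at the median of all listed genes of a line. *FOSL1* spans 2 to 930 windows, *EGR1* 72 to 477, while *IER2* stays at 583 to 590, counting its region shared with *STX10*.

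The lines were checked against marker genes. All 11 luminal markers had regions in 22Rv1 and in LNCaP and 6 in HPr1AR, where *KLK3*, *KLK2*, *KLK4*, *TMPRSS2* and *FOLH1* had none. All 10 basal markers had regions in HPr1AR, against 2 in 22Rv1 and 1 in LNCaP, and their windows summed to 34 in 22Rv1, 13 in LNCaP and 15098 in HPr1AR. *TP63*, *KRT5* and *KRT14*, which define basal cells, had no region in 22Rv1 or LNCaP. The windows over *FOSL1* move with this basal list, and its part in the *FOSL1* values was not tested.

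Other genes of the pathway were counted in the same way. Of 30 other immediate early genes, 25 in 22Rv1, 23 in LNCaP and 29 in HPr1AR had regions here, and every one of those had a higher region. Of all listed genes 91.1%, 91.5% and 93.2% had one. These counts and those of the lists that follow are therefore not a result about the lists. *ZFP36*, a decay factor for short-lived messages, held 63 m6A and 3 IgG reads in 22Rv1, at least 64 and 8 in LNCaP and at least 73 and 78 in HPr1AR. *MYC* held 76 and 38, at least 73 and 65, and at least 72 and 59. At the low end, *EGR2* held 7 and 1 reads in 22Rv1 and 6 and 0 in HPr1AR, with no region in LNCaP, and *NR4A3* held 4 and 0 in HPr1AR, with none in the cancer lines. Like *EGR1*, its relative *EGR2* was covered least in LNCaP.

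Of 24 other AP-1 and bZIP genes, 19 of the 20 with regions in 22Rv1, 21 of 21 in LNCaP and 23 of 23 in HPr1AR had a higher region. The 1 without was *ATF4*, the effector of the integrated stress response, with 48 m6A and 45 IgG reads in 22Rv1 (log2 ratio 0.64). In the other lines *ATF4* held 83 and 76 reads in LNCaP, where more than 1 pair of reads gave the fold, and at least 68 and 52 in HPr1AR. *CEBPB* held at least 62 and 20, at least 67 and 8, and at least 72 and 53 reads in 22Rv1, LNCaP and HPr1AR. *BATF3* held 45 and 2, 12 and 0, and 5 and 0. *MAF* held at least 63 and 10 reads in LNCaP and 14 and 0 in HPr1AR, with no region in 22Rv1.

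Of the 17 genes listed as SRF and TCF pathway genes, 16, 17 and 16 had a higher region, *RPS6KA4* being the exception in 22Rv1 and HPr1AR. This list of upstream regulators also holds *CRTC1*, *CRTC2* and *CRTC3*, which are coactivators of CREB. The kinase gene *RPS6KA1* held 62 and 3 reads in 22Rv1, at least 66 and 10 in LNCaP and at least 68 and 31 in HPr1AR. *ELK3* held 23 and 0, 20 and 5, and at least 67 and 37, *CRTC2* 27 and 6, 31 and 20, and 21 and 8, and *RPS6KA5* 29 and 1, 37 and 2, and 19 and 1. For *CRTC2* in LNCaP more than 1 pair of reads gave the fold.

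Of 18 other dual specificity phosphatase genes, the relatives of *DUSP1*, 18 of 18, 17 of 17 and 17 of 18 with regions had a higher one. *DUSP16* held 81 and 14 reads in 22Rv1, at least 63 and 9 in LNCaP and at least 70 and 11 in HPr1AR. *DUSP7* held 64 and 7, 58 and 9, and at least 70 and 24. *DUSP2*, like *DUSP1* an inducible nuclear member, held fewer reads (23 and 3, 14 and 5, and 10 and 5), and *DUSP9* was not called in HPr1AR with 4 and 2. Of 16 other intronless genes, all with regions had a higher one, 13, 12 and 12 in 22Rv1, LNCaP and HPr1AR. Among them *IER5* held 74 and 5 reads in 22Rv1, at least 63 and 1 in LNCaP and at least 70 and 70 in HPr1AR, *CEBPA* 88 and 7, at least 62 and 6, and at least 60 and 2, and *FOXC1* 24 and 1 in 22Rv1 and at least 61 and 8 in HPr1AR.

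The median log2 ratio of each gene's best region was 3.66 in 22Rv1, 3.41 in LNCaP and 2.07 in HPr1AR for the 10 members. It was 4.25, 4.50 and 2.59 for the other immediate early genes, 3.71, 3.72 and 3.82 for the other AP-1 and bZIP genes, 3.97, 3.90 and 3.43 for the SRF and TCF pathway genes, 4.44, 3.37 and 3.01 for the other phosphatase genes, and 4.23, 4.39 and 3.32 for the other intronless genes. Over all listed genes it was 3.63, 3.66 and 3.69. Since many of these values are bounds, the medians are descriptions without a test.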

How the data were processed

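The members and the gene lists were chosen with earlier results of these data known. The 17 samples fall into 6 groups by line and antibody, and the labels speak of biological triplicates. The authors deposited 1 table of regions per line with a log2 fold of a representative window, a p-value and an adjusted p-value, and the windows and gene marks of the region, per the file headers. Which pull-down forms the numerator is not stated there; m6A was assumed after the tables' names. The aligner, counter and test were not given in the sources used here. The submitters' processing notes name hg38, yet 0 of the 71 member regions overlapped its gene in GRCh38, so positions are as the tables give them and their build was not established. The tables are pooled, and 0 columns of per-sample values were left unused.

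In the deposited fold, the log2 of the m6A reads (plus a prior) has the log2 of the IgG reads (plus another) taken off 2 times, with a fixed offset added. The p-value was modelled by the matching likelihood ratio test. Fold and p-value were both fitted on regions of 1 window. There the deposited statistic was a median of 1.0, 0.821 and 0.831 times the modelled one in 22Rv1, LNCaP and HPr1AR, so the match was not exact in LNCaP and HPr1AR. The p-value only bounded the reads, from 0.75 of the scaled to 1.02 of the unscaled log10 p-value, with more room for regions of many windows. The depths assume that priors scale with depth and were not checked against sequenced reads. Whole reads were found for 99.8% of regions with p above 0 in 22Rv1, 98.5% in LNCaP and 100.0% in HPr1AR, against 0.968%, 11.9% and 0.92% after a random shift of the folds. In regions with a deposited p-value of 0 (135, 6737 and 8613) the smallest reads were taken; a whole pair was found for 0.741% of these in 22Rv1, 98.7% in LNCaP and 98.0% in HPr1AR, against 1.48%, 64.3% and 3.32% after the shift, so the 22Rv1 reads of such regions were not recovered (no member region is among them). In 22Rv1 and LNCaP 177 and 1598 regions with p above 0 gave no pair, and their bound holds only if the formula does. The representative window was chosen by its p-value, so ratios of called regions may run high.

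Both exact tests (scipy 1.17.1, Python 3.11.15) covered every region or every overlapping pair with exact reads (at least 1 bp), Benjamini-Hochberg adjusted at 0.05; they measure counting error within a table, not the spread between samples. The steps were tested on simulated data. Alternatives were a threshold of 0.01, exon regions only, regions with another gene's exon left out, rescaling to the table median, at least 10 reads, exact reads only, 50% reciprocal overlap and, chosen after seeing the data, bounds counted as not called. All 10 members are named; of each other list, the 2 genes with most and the 2 with fewest m6A reads in HPr1AR are, and others named were chosen after their values were seen. Older symbols were matched through RefSeq only where unambiguous.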

Additional observations from a re-analysis of the deposited data

How the results depend on the processing

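No paired analysis was possible because the tables hold no value per sample; for the same reason leaving out replicates was not run. After rescaling rates to the median of each table, higher member regions numbered 8 in 22Rv1 (19 before) and 11 in HPr1AR (21 before), and 1 pair differed between 22Rv1 and LNCaP (0 before), the *EGR1* pair. Bounds that no longer passed were left undecided and are not in these counts of regions. With exact and unique reads only, 7 regions in LNCaP (17 before) and 7 in HPr1AR were higher; with bounds counted as not called, 11 and 8, which follows from those regions being left uncounted. The other alternatives listed in the processing moved no count of members by over 1.5 times. The number of reads limits short regions: 5 m6A reads against 0 in 22Rv1 sufficed for a call, and only 11 pairs between lines could be tested. Among regions with a p-value above 0, reads of LNCaP are the least certain, since a random shift of the folds left whole reads most often there.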
